A study of Mus musculus with 2 samples.

Results

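Srd5a2 and the genes around it in androgen and estrogen metabolism were described in adrenal gland of the male mouse. The 9 genes were taken by symbol from the 55536 gene entries of the tables: the 5-alpha-reductase genes Srd5a2, Srd5a1 and Srd5a3, the 17-beta-hydroxysteroid dehydrogenase genes Hsd17b1, Hsd17b2, Hsd17b3 and Hsd17b6, the aromatase gene Cyp19a1, and the estrogen receptor gene Esr1. They were chosen by the TPM of Srd5a2 and its neighbours in the pathway in these same libraries, so each level below is a description and carries no test.

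The series holds total RNA sequencing of whole adrenal gland from male B6CASTF1/J mice, a hybrid strain with 1 C57BL/6J parent and 1 CAST/EiJ parent, taken at 36 days. No agent or engineered allele is named for any sample. Both libraries, called replicates 1 and 2 after their labels, belong to 1 group, so the study has no contrast between conditions. The labels number them as biological replicates and their sample descriptions name a different male for each, but both library descriptions name the same male, so the spread between them may be between animals or technical.

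Depth was 35813366 expected counts for replicate 1 and 30628771 for replicate 2. All 6 adrenal cortex markers and all 6 adrenal medulla markers reached 1 TPM (a transcript level scaled by length and by the library total) in both libraries. Markers of liver summed to 12.2 TPM in replicate 1 and 96.9 TPM in replicate 2, and markers of pancreas to 0.21 and 6606 TPM in the same order, so replicate 2 stood apart in these. Adipocyte markers summed to 1007 TPM in replicate 1 and 982 TPM in replicate 2, so both libraries carried RNA of these genes. On the scaled counts described below, 3 of the 6 were higher in replicate 1 and 3 in replicate 2. Only the brown fat gene Ucp1 was past 2-fold, 2.59 times as high in replicate 2 on that scale, at 156 and 302 TPM. Just short of 2-fold were Cidea, 1.995 times as high in replicate 2, and Lep, 1.97 times as high in replicate 1. The 7SL RNA genes Rn7s1 and Rn7s2 took 32.5% of all TPM in replicate 1 and 48.9% in replicate 2, which lowers the TPM of other genes more in replicate 2. Comparisons between the libraries were therefore made on counts scaled by TMM, a factor from genes that change little, and comparisons between genes on TPM within a library.

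Testosterone acts directly or after 5-alpha-reductases turn it into the stronger androgen dihydrotestosterone, and aromatase turns it into estradiol instead. The 17-beta-hydroxysteroid dehydrogenases move sex steroids between their active and less active forms. The 5-alpha-reductases also reduce progesterone and glucocorticoids, and Srd5a3 serves mainly the synthesis of dolichol, the lipid carrier of N-linked glycans. Srd5a2 is best known from prostate, epididymis and the developing male genital tract.

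Upstream sequences of the 3 reductase genes are shown to set the start region of the abundant gene beside those of the scarce ones. RefSeq promoter windows (GRCm38.p6, the same coordinates as mm10) were found for 7 of the 9 genes. The stretches run 5′ to 3′ on the gene's strand from 250 to 57 bases before the RefSeq start, and end before the GENCODE start as well. Capitals mark the GC box GGGCGG, the CCAAT box CCAAT and the TATA core TATAA, searched on both strands, and no marked match overlaps another.
Srd5a2 (chr17:74047917-74048110, minus strand): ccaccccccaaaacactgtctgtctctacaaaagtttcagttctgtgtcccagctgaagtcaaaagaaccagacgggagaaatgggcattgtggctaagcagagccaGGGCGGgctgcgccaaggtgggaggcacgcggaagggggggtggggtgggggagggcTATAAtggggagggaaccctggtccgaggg
Srd5a1 (chr13:69611520-69611713, minus strand): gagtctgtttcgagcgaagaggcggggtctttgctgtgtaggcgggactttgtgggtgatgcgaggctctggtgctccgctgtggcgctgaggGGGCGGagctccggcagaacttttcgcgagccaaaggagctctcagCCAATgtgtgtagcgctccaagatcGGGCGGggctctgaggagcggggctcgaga
Srd5a3 (chr5:76140023-76140216, plus strand): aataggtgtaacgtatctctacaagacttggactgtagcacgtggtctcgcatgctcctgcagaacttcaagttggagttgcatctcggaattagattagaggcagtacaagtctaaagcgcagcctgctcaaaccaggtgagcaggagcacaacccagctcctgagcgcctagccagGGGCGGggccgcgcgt

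The GC box occurred once in the Srd5a2 and Srd5a3 stretches and at 2 places in that of Srd5a1, and 23.6% of the 32851 RefSeq promoter windows trimmed to the same 194 bases hold it. Only the Srd5a2 stretch of the 3 had the TATA core, whose first base lies 86 bases before the RefSeq start, where the GENCODE start lies 56 bases before it; 17.5% of all windows hold these letters. Only the Srd5a1 stretch had the CCAAT box, found in 27.5% of windows. The nuclear receptor motif AGGTCA and its longer form CAAGGTCA, the motif of the steroidogenic factor NR5A1, both searched on both strands and the first contained in the second, were in none of the 3 and are in 11.1% and 1.10% of windows. The palindromic estrogen response element was searched with no mismatch, as was the palindromic element of the androgen and glucocorticoid response. They were in none of the 3, against 0.0487% and 0.0274% of windows. GC content was 60.3% for Srd5a2, 63.4% for Srd5a1 and 54.6% for Srd5a3, against a median of 51.5% over all windows.

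Srd5a2 (ENSMUSG00000038541.8, mm10 chr17:74016955-74047916, minus strand) was the abundant gene of the 9. It had 899 TPM in replicate 1 and 554 TPM in replicate 2, or 726 ± 244 TPM (SD, n = 2), and ranked 21 and 30 among nuclear protein-coding genes. The pancreas markers Ctrb1, Cela2a, Pnlip and Prss2 ranked 2, 4, 9 and 21 in replicate 2, above Srd5a2. They had 3 counts or fewer in replicate 1. Cpa1 and Ins2, at ranks 36 and 501 in replicate 2, lay below Srd5a2. All of these markers are also in the total used for the rescaled TPM below. The Srd5a2 levels rest on 47816 and 32395 expected counts. On TPM rescaled over nuclear protein-coding genes, the level was 2895 in replicate 1 and 2384 in replicate 2, and the second transcript file, made by the authors in a separate quantification, gave 1748 and 1424 TPM. Replicate 1 was the higher library on all of these scales. The nearest protein-coding genes in level, by Euclidean distance of log2(TPM + 1) over the 2 libraries, were the glycolytic enzyme gene Gapdh at a distance of 0.10, Tpt1 at 0.12, the beta-actin gene Actb at 0.23, Rpl41 at 0.25 and Adh1 at 0.27. These distances are from the gene table: the second file put Gapdh at 3113 and 2577 TPM and Tpt1 at 2517 and 2058 TPM, above Srd5a2 in both libraries.

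**Figure D1:**
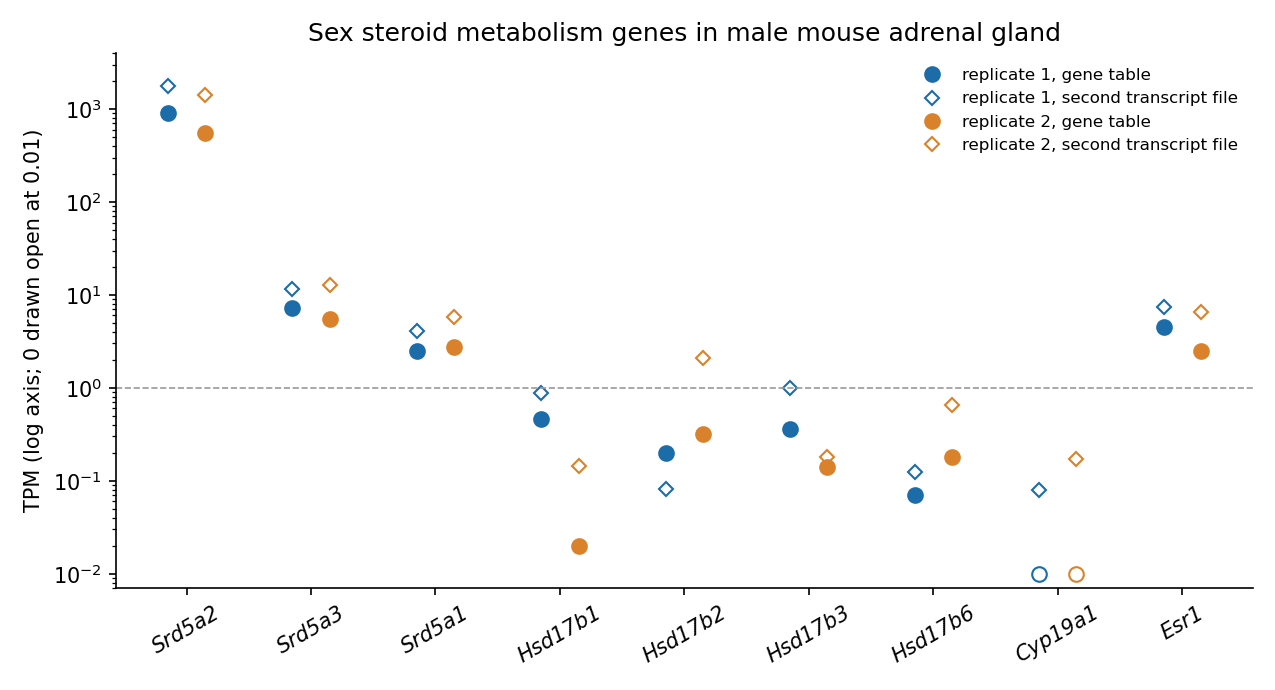
TPM on a log axis of the 9 genes in replicate 1 (blue) and replicate 2 (orange), from the gene table (filled circles) and the second transcript file (open diamonds); the dashed line is 1 TPM and values of 0 are drawn open at 0.01. Srd5a2 stands at 899 and 554 TPM, Srd5a3, Srd5a1 and Esr1 between 2.48 and 7.14 TPM, and the other 5 genes below 1 TPM in the gene table of both libraries.

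Within each library Srd5a2 was a large fraction of the cortical steroid enzymes. It stood at 62.7% of the TPM of Cyp11b1, the 11-beta-hydroxylase of corticosterone synthesis, in replicate 1 and at 62.3% in replicate 2. Against Cyp21a1, the 21-hydroxylase, it was at 49.6% and 53.1%. Against Cyp11a1, the side-chain cleavage enzyme that starts steroid synthesis, it was at 36.3% and 41.9%. For Hsd3b1 the values were 28.5% in replicate 1 and 27.3% in replicate 2, and for the cholesterol transport gene Star 16.1% and 19.8%. Cyp11b1 and Hsd3b1 thus kept a nearly fixed proportion to Srd5a2 in both libraries, with an SD of 0.277 and 0.823 percentage points, while the proportion to Star, Cyp11a1 and Cyp21a1 was higher in replicate 2. The second file put Srd5a2 at 78.2% and 77.8% of Cyp11b1, so this value depends on the quantification more than on the library. The same held for Hsd3b1, at 31.5% and 29.9% in the second file, and Cyp21a1, at 56.0% and 59.7%. For Star, at 15.6% and 19.2% there, and Cyp11a1, at 40.0% and 46.0%, the libraries differed more than the files.

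**Figure D2:**
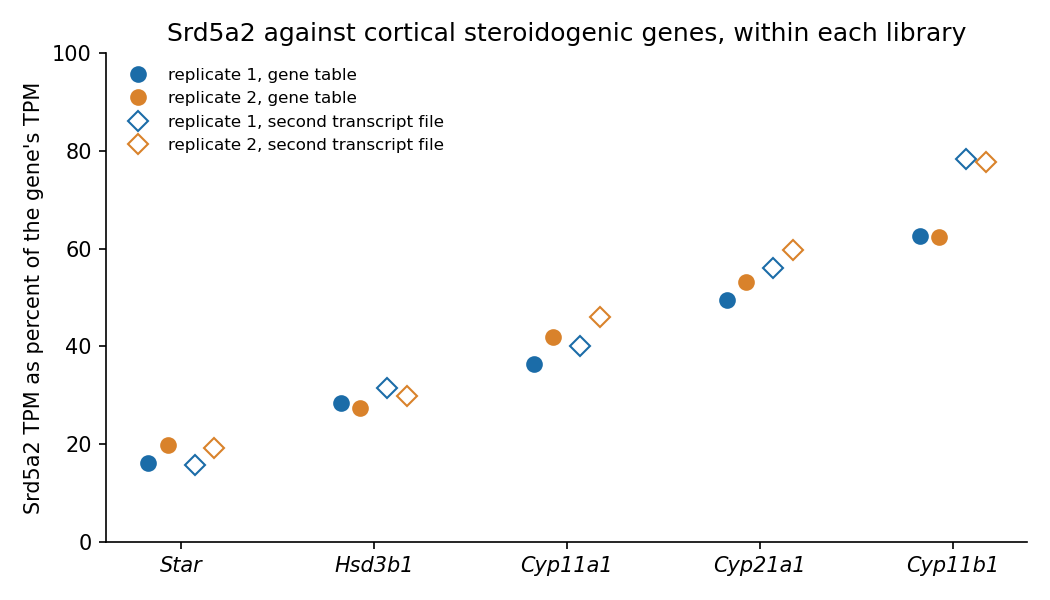
Srd5a2 TPM as a percent of the TPM of 5 cortical genes within replicate 1 (blue) and replicate 2 (orange), from the gene table (circles) and the second transcript file (diamonds). The percentages run from about 16.1 for Star to 62.7 for Cyp11b1 in the gene table of replicate 1, and both libraries lie close together for Cyp11b1 and Hsd3b1.

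Markers of the organs best known for Srd5a2 were near 0. The epididymis and prostate list summed to 0.22 TPM in replicate 1 and 0.15 TPM in replicate 2, and 4 of its 6 genes, Lcn5, Lcn8, Svs4 and Pbsn, had 0 counts in both. The cortex markers summed to 3834 TPM in replicate 1 and 2168 TPM in replicate 2 and the 6 medulla markers to 1445 and 1691 TPM in the same order. All 6 cortex markers had higher scaled counts in replicate 1, with a median log2 ratio of 0.52, and all 6 medulla markers had higher ones in replicate 2, with a median of -0.48 that spike-in scaling turns positive. Srd5a2 was higher in the same library as the cortex markers, and the part of cortex and medulla content in its values was not tested. In whole-gland RNA, fewer cells of a type and less RNA per cell cannot be told apart.

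A single transcript, Srd5a2-201, is annotated for the gene and held 100% of its TPM in both libraries and both transcript files. It has 5 exons and 1605 bases, with 89 bases of 5′ UTR, 765 coding bases and 751 bases of 3′ UTR. A stretch of 146 bases inside the coding part, from base 369 to 514 of the transcript, is also part of the noncoding gene CT025731.1, which overlaps Srd5a2 on the same strand. That gene had 63.5 counts in replicate 1 and 35.0 in replicate 2, so it took few of the reads at the locus.

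Srd5a3 (ENSMUSG00000029233.15, chr5:76140271-76155504, plus strand), the polyprenol reductase gene, was next in level. It had 7.14 TPM in replicate 1 and 5.46 TPM in replicate 2, or 6.30 ± 1.19 TPM (SD, n = 2), from 410 and 334 counts. Rescaled over protein-coding genes it stood at 23.0 and 23.5, so the libraries lay nearly level on that scale. The 13 listed dolichol pathway genes all reached 1 TPM in both libraries, and the most abundant were the mannosyltransferase gene Alg2 at 36.5 ± 11.9 TPM and the dolichol phosphate mannose synthase genes Dpm1 at 33.0 ± 2.09 and Dpm3 at 30.1 ± 7.40 TPM (SD, n = 2). Mpdu1, needed for the use of dolichol-linked sugars, had 24.6 ± 4.20 TPM and Dpm2 15.5 ± 3.85 TPM. Srd5a3 was below these 5 genes in both libraries, but they were named as the most abundant of the list. It was above Dolpp1, at 5.66 TPM in replicate 1 and 4.16 in replicate 2, and Alg6, at 1.84 and 1.85 TPM. All the rest of the 13 were above Srd5a3 in both libraries.

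Srd5a1 (ENSMUSG00000021594.11, chr13:69573449-69611442, minus strand), the widely expressed 5-alpha-reductase gene, was the lowest of the 3. It had 2.48 TPM in replicate 1 and 2.75 TPM in replicate 2, or 2.62 ± 0.191 TPM (SD, n = 2), from 223 and 271 counts. Replicate 2 was slightly higher in TPM and clearly so in the second file, with 4.09 TPM in replicate 1 and 5.80 TPM in replicate 2. The gene lies within the span of Nsun2 on the opposite strand, and its leading transcript Srd5a1-202 shares 17.1% of its 31-base words with the same-strand gene Gm17108, which had 1.32 and 5.56 counts. How much this overlap moves the count of Srd5a1 was not tested.

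Of the summed TPM of the 3 reductase genes, Srd5a2 made up 98.9% in replicate 1 and 98.5% in replicate 2, or 98.7% ± 0.284 (SD, n = 2). Srd5a3 made up 0.786% and 0.971%, and Srd5a1 0.273% and 0.489%. Srd5a2 was thus 362 times the level of Srd5a1 in replicate 1 and 201 times in replicate 2, and 126 and 101 times that of Srd5a3. The order Srd5a2, Srd5a3, Srd5a1 was the same in both libraries and both quantifications, and the ratio of Srd5a2 to Srd5a1 varied most, at 282 ± 114 (SD, n = 2). Tecr, an enoyl reductase gene of fatty acid elongation whose protein has the same kind of catalytic domain, had 115 ± 29.4 TPM, while its relative Tecrl had 0 counts in both.

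Srd5a3 and Srd5a1 each have several annotated transcripts. Srd5a3-201, the 6-exon coding transcript of 1747 bases, held 87.3% of the gene's TPM in replicate 1 and 71.7% in replicate 2. The retained-intron transcript Srd5a3-204 held 5.60% and 11.4%, and Srd5a3-206, also a retained intron, 3.78% and 5.32%. The remaining TPM lay in Srd5a3-208, at 3.36% and 6.06%, and in Srd5a3-202, at 0 and 5.50%. In the second file Srd5a3-201 held 90.2% and 61.0%, and Srd5a3-203, at 0 counts in the first file, took 15.9% in replicate 2. Srd5a1-202 held 100% of Srd5a1 in both libraries of the first file and 90.2% and 91.4% in the second, where Srd5a1-203 had 9.78% and 6.12% and Srd5a1-201 had 0 and 2.51%.

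**Figure D3:**
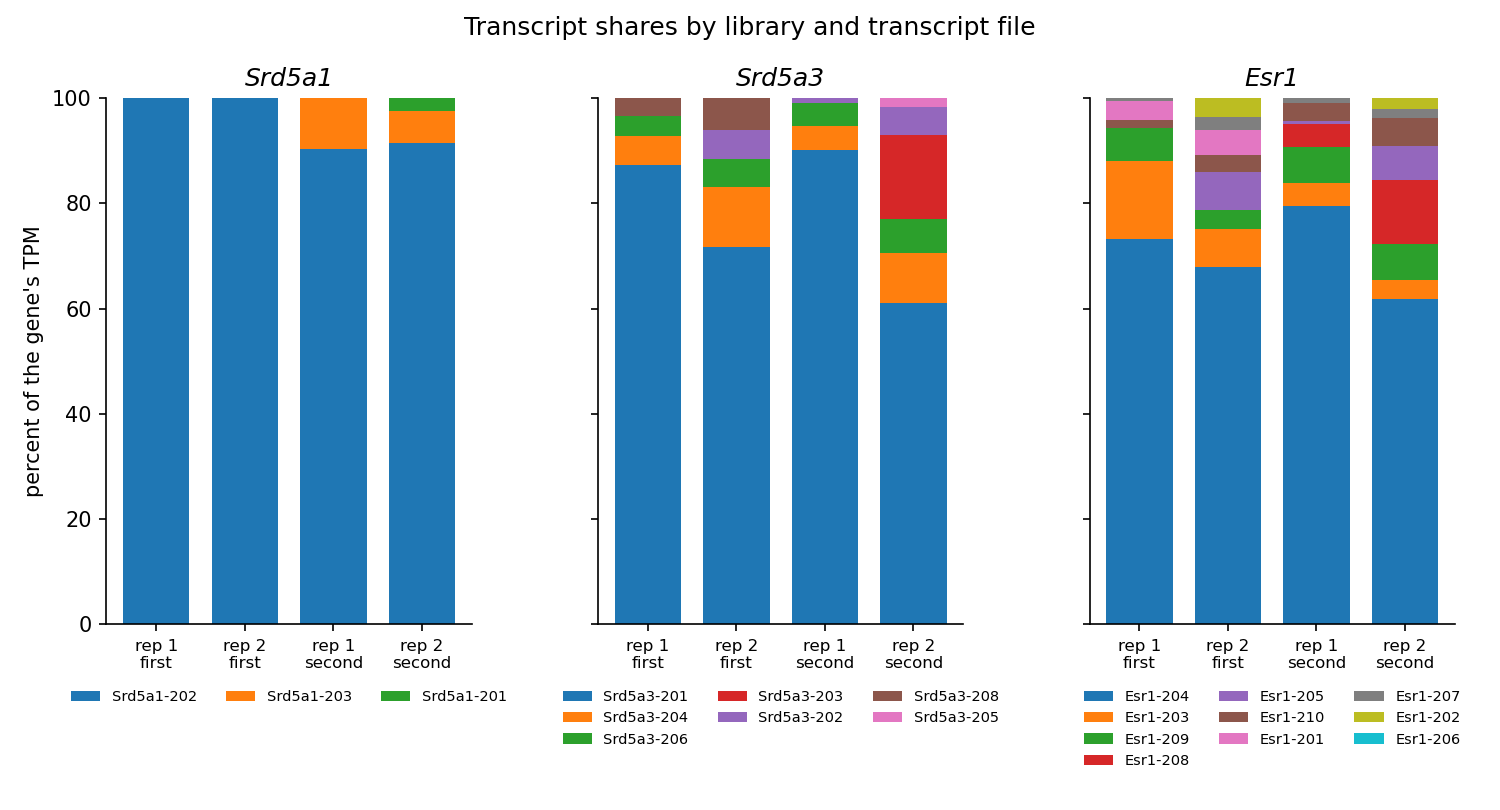
Percent of each gene's TPM held by each transcript of Srd5a1, Srd5a3 and Esr1, for replicates 1 and 2 in the first and second transcript files. Srd5a1-202 fills 90.2% or more of each Srd5a1 bar, while Srd5a3-201 holds less in replicate 2 than in replicate 1 in both files.

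The 4 hydroxysteroid dehydrogenase genes were all below 1 TPM in both gene tables. Hsd17b3 (ENSMUSG00000033122.14, chr13:64058266-64089230, minus strand), which makes testosterone from androstenedione in testis, had 7 counts in replicate 1 and 3 in replicate 2, or 0.36 and 0.14 TPM. All of these counts went to Hsd17b3-203, a 4-exon transcript of 655 bases, and none to the longer coding transcripts Hsd17b3-201, Hsd17b3-202 and Hsd17b3-204. The second file placed 8 counts on Hsd17b3-203 in replicate 1 and 3 counts on Hsd17b3-201 in replicate 2, so the transcript is not settled at this depth.

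Hsd17b1 (ENSMUSG00000019301.5, chr11:101078411-101080527, plus strand), which makes estradiol from estrone, had 20 counts in replicate 1 and 1 count in replicate 2, or 0.46 and 0.02 TPM. The ratio of replicate 1 over replicate 2 was 16.4, with an exact 95% interval of 2.62 to 679, and rests on the 1 count of replicate 2. In the second file, with 22 counts in replicate 1 and 3 in replicate 2, it was 6.05 (1.82 to 31.6). The gene lies between Naglu and Coasy on the same strand, at 953 and 1534 counts in replicate 1 and 713 and 1412 in replicate 2, and neither overlaps it.

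Hsd17b2 (ENSMUSG00000031844.8, chr8:117701904-117759027, plus strand), which oxidises testosterone and estradiol, had 3 counts in replicate 1 and 14 in replicate 2, or 0.20 and 0.32 TPM. Its ratio of replicate 1 over replicate 2 was 0.175 (exact 95% interval 0.0323 to 0.629). The second file gave 0.0812 TPM in replicate 1 and 2.11 TPM in replicate 2, from 2 and 16 counts, a ratio of 0.103 (0.0115 to 0.438). Hsd17b2 is a gene of liver among other tissues, and the liver and pancreas markers, all 6 of each past 2-fold higher in replicate 2, moved the same way. They summed to 12.2 and 96.9 TPM for liver and to 0.21 and 6606 TPM for pancreas in replicates 1 and 2, and their part in the Hsd17b2 counts was not tested. The main coding transcript Hsd17b2-201 had 0 counts in replicate 1 and 12.8 in replicate 2. In the second file it held 22.2% of the gene's TPM in replicate 2, where the noncoding Hsd17b2-203 led with 65.0%.

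Hsd17b6 (ENSMUSG00000025396.7, chr10:127990936-128007611, minus strand), an oxidative 3-alpha-hydroxysteroid dehydrogenase, had 3.22 counts in replicate 1 and 3.98 in replicate 2, or 0.07 and 0.18 TPM. The ratio of 0.614 had an exact 95% interval of 0.0900 to 3.63, which includes equal levels. Its transcripts share a coding stretch of up to 248 bases with retinol dehydrogenase genes of the same family, Rdh1 first among them, so its few counts are uncertain.

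Cyp19a1 (ENSMUSG00000032274.9, chr9:54165937-54268110, minus strand) had 0 counts in both gene tables. A count of 0 allows up to 3 counts, or 0.0620 TPM in replicate 1 and 0.0564 TPM in replicate 2 at the gene's length, which covers counting error only. The upper limits deposited by the authors were much higher, at 0.992 TPM in replicate 1 and 0.908 TPM in replicate 2. Esr2, the gene of the other estrogen receptor, also had 0 counts in both gene tables, while the second file listed it at 7.71 estimated counts in replicate 1 and 13.0 in replicate 2. Of the 4 granulosa cell markers, Fshr, at 0 counts in both libraries, and Foxl2, at 1 and 2 counts, were near 0. Amh had 14 counts in replicate 1 and 8 in replicate 2, while Inha, also a gene of adrenal cortex, had 509 and 289.

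Esr1 (ENSMUSG00000019768.16, chr10:4611593-5005614, plus strand) was detected in both libraries. It had 4.52 TPM in replicate 1 and 2.49 TPM in replicate 2, or 3.51 ± 1.44 TPM (SD, n = 2), from 843 and 487 counts. Replicate 1 was higher. Srd5a2 stood at 199 times the TPM of Esr1 in replicate 1 and at 222 times in replicate 2.

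Esr1-204, the 10-exon transcript of 6339 bases, held 73.2% of Esr1 in replicate 1 and 67.9% in replicate 2. Esr1-203, which has the same coding length of 1800 bases and a shorter 3′ UTR, held 14.8% and 7.23%. The second file gave 79.5% and 61.8% to Esr1-204, and 4.38% and 3.71% to Esr1-203. Of the other transcripts with TPM above 0 in the first file, Esr1-209, Esr1-201, Esr1-210 and Esr1-207 were present in both libraries at 0.664% to 6.19%, and Esr1-202 and Esr1-205 only in replicate 2, at 3.61% and 7.23%. The genes nearest to Esr1 in level were D030056L22Rik at a distance of 0.0083, Plagl1 at 0.0215, Fam131a at 0.0251, Mertk, a receptor of phagocytes, at 0.0371 and the macrophage gene Cd163 at 0.0406.

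By the 1 TPM mark in both libraries, 4 of the 9 genes (44.4%) were detected, against 11526 of 22015 nuclear protein-coding genes (52.4%). The order of levels in the gene table was Srd5a2, Srd5a3, Esr1 and Srd5a1 in replicate 1, while Srd5a1 stood above Esr1 in replicate 2. In the second file Esr1 was above Srd5a1 in both libraries. The values there were 7.48 and 4.09 TPM in replicate 1, and 6.54 and 5.80 TPM in replicate 2. Esr1 and Srd5a1, at 3.51 ± 1.44 and 2.62 ± 0.191 TPM, lay within their spread, and the 5 genes below 1 TPM have too few counts to be ordered.

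The 4 detected genes entered the comparison over all genes, since they alone of the 9 reached a mean CPM (counts scaled to library size) of 1. Of the 14780 genes at or above that level, 6.84% differed at least 2-fold either way, 1.74% being higher in replicate 1 and 5.10% higher in replicate 2, and 0 of the 4 members did. With 1 library on each side no p-value can be given, and the intervals below cover counting error only. The median log2 ratio over all compared genes was -0.01, with an SD of 0.98 and quartiles of -0.29 and 0.20.

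Srd5a2 was 1.21 times as high in replicate 1 as in replicate 2 (exact 95% interval 1.19 to 1.23), a log2 ratio of 0.27. At 47816 counts this interval is narrow, and 17.5% of compared genes had a higher ratio, so the difference is of a size common between these libraries. Cyp11b1 had a log2 ratio of 0.26, the corticotropin receptor gene Mc2r 0.30, Hsd3b1 0.21 and Cyp21a1 0.37. Cyp11a1 was at 0.48, Star at 0.62 and the aldosterone synthase gene Cyp11b2 at 0.67, above Srd5a2, and the median of the 6 cortex markers was 0.52, while Nr5a1 and Mrap were more than 2-fold higher in replicate 1, at 1.18 each.

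Srd5a3 had a ratio of 1.01 (0.868 to 1.16), so a difference between libraries was not detectable at this depth. Srd5a1 had a log2 ratio of -0.57 (-0.83 to -0.31), lower in replicate 1 under TMM, DESeq2 and total count scaling, but higher in replicate 1 at 0.32 under spike-in scaling, which moves the median of all genes up by 0.89. Among compared genes, 12.4% had a lower ratio than Srd5a1. The liver markers had a median log2 ratio of -3.53 and the pancreas markers, 3 of them at 0 counts in replicate 1, summed to 0.21 and 6606 TPM. All 6 medulla markers were also higher in replicate 2 under TMM scaling, with a median log2 ratio of -0.48. The part of liver, pancreas and medulla content in the Srd5a1 value was not tested.

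Esr1 had a log2 ratio of 0.50 (0.34 to 0.67), exceeded by 6.96% of compared genes. Capsule and stroma markers had a median log2 ratio of 0.39, with 6 of 8 higher in replicate 1 and none past 2-fold, and summed to 329 TPM in replicate 1 and 182 TPM in replicate 2. All 6 cortex markers were also higher in replicate 1, with a median log2 ratio of 0.52 and 2 past 2-fold. The part of cortex, capsule and stroma content in the Esr1 difference was not tested.

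**Figure D4:**
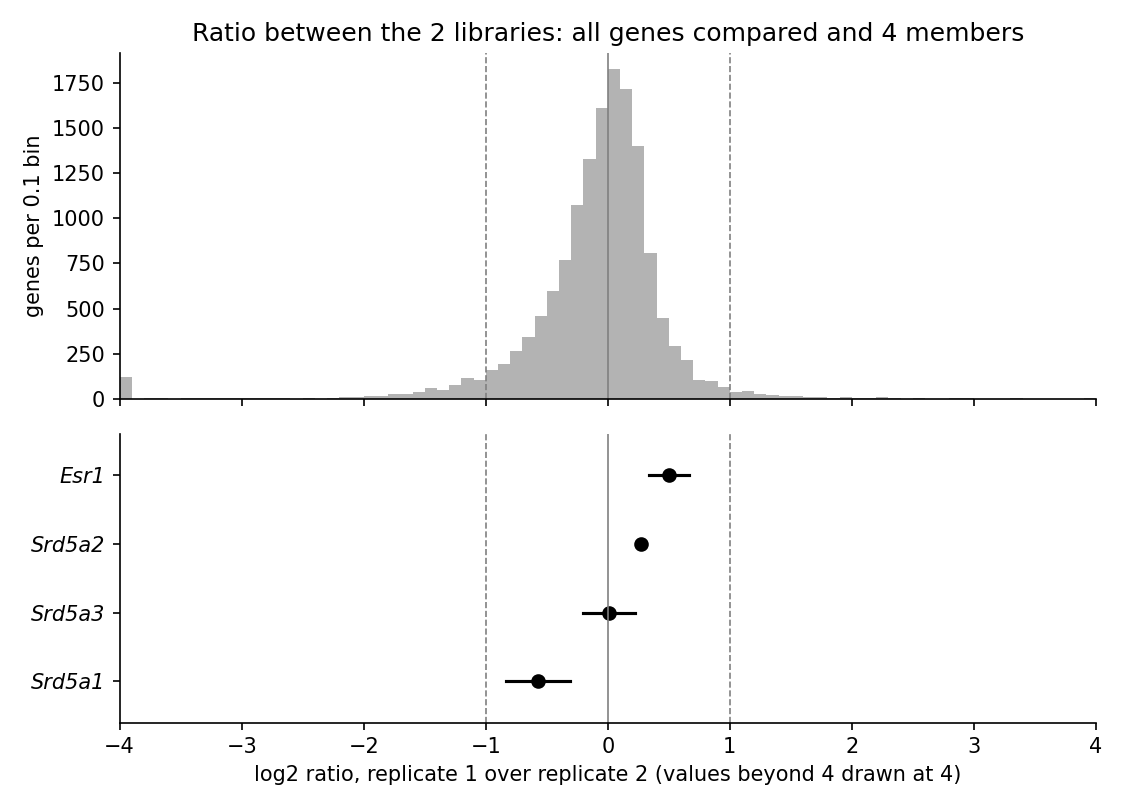
Upper panel: number of genes per 0.1 bin of the log2 ratio of replicate 1 over replicate 2, for 14780 genes scaled by TMM; lower panel: the 4 compared members with exact 95% intervals of counting error, and dashed lines at 2-fold. All 4 lie inside the 2-fold lines, from -0.57 for Srd5a1, which turns to 0.32 under spike-in scaling, to 0.50 for Esr1.

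The wider pathway was read from 7 lists of 64 genes, of which 63 were matched and 39 (61.9%) reached 1 TPM in both libraries, against 52.4% of nuclear protein-coding genes. Of the 47 that could be compared, 2 (4.26%) were past 2-fold higher in replicate 1 and 7 (14.9%) past 2-fold higher in replicate 2, against 1.74% and 5.10% of all genes compared, with a median log2 ratio of 0.06 against -0.01 over all genes. The lists were chosen with earlier results of these libraries known.

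Steroid supply genes were abundant: 9 of 10 reached 1 TPM in both libraries, led by Star at 4187 ± 1971, Hsd3b1 at 2591 ± 798, Cyp11a1 at 1899 ± 817, the ferredoxin gene Fdx1 at 893 ± 499 and its reductase gene Fdxr at 356 ± 134 TPM (SD, n = 2). Hsd3b2 was below 1 TPM, at 0.03 TPM in replicate 1 and 0.09 TPM in replicate 2. The second file gave it 2.47 and 4.91 TPM in the same order. Cyp17a1, the 17-alpha-hydroxylase that androgen synthesis requires, was the lowest of the other 9, with 3.17 TPM in replicate 1 and 1.05 TPM in replicate 2. It was higher in replicate 1 by a log2 ratio of 1.14, from 192 and 71 counts. Srd5a2 was at 284 times the TPM of Cyp17a1 in replicate 1 and at 528 times in replicate 2.

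Of the 8 other Hsd17b genes, 6 reached 1 TPM in both libraries, several of them better known for fatty acid or cholesterol metabolism than for sex steroids. H2-Ke6, the gene also called Hsd17b8, had 61.9 ± 16.1 TPM, Hsd17b12, an enzyme of fatty acid elongation, 54.3 ± 11.1, and Hsd17b10, a mitochondrial enzyme, 40.1 ± 9.59 TPM (SD, n = 2). Hsd17b4, of peroxisomal beta-oxidation, had 38.8 ± 1.99 and Hsd17b11, a lipid droplet protein, 13.7 ± 2.09 TPM. These levels all lay above those of the 4 Hsd17b members. Hsd17b13, a liver lipid droplet gene, was the only one past 2-fold, with 2 counts in replicate 1 and 103 in replicate 2, and moved with the liver and pancreas markers, whose part in it was not tested.

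Among the 9 aldo-keto reductases that act on the steroid A ring or side groups, only Akr1c13 reached 1 TPM in both libraries, at 2.65 TPM in replicate 1 and 1.93 TPM in replicate 2. Akr1c14, the 3-alpha-hydroxysteroid dehydrogenase gene that acts after 5-alpha-reduction, had 25 and 68 counts, or 0.27 and 0.69 TPM, a log2 ratio of -1.71. Akr1c6, abundant in liver, had 1 count in replicate 1 and 84 in replicate 2, and the liver and pancreas markers moved the same way as both genes, with their part not tested. Akr1c18, the 20-alpha-hydroxysteroid dehydrogenase gene of the X-zone, was higher in replicate 1 by a log2 ratio of 1.08, from 60 and 23 counts. Its ratio of replicate 1 over replicate 2 was 2.14 (exact 95% interval 1.30 to 3.62). In the second file the ratio was 1.48 (0.978 to 2.26), short of 2-fold and with equal levels inside the interval. Srd5a2 was at 3329 times the TPM of Akr1c14 in replicate 1 and at 803 times in replicate 2. Akr1d1, the 5-beta-reductase gene, had 22 counts in replicate 1 and 28 in replicate 2, at 0.24 and 0.28 TPM.

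In the list of conjugation and hydroxylation, 13 of 14 genes were matched and 4 reached 1 TPM in both libraries. Among them, Cyp2d22 had 9.80 ± 1.68 TPM, the estrogen hydroxylase gene Cyp1b1 8.79 ± 3.83 and the oxysterol hydroxylase gene Cyp7b1 1.98 ± 0.0566 TPM (SD, n = 2). The glucuronosyltransferase genes Ugt2b34, Ugt2b1 and Ugt2b5 and the sulfotransferase gene Sult2a8 were past 2-fold higher in replicate 2, at log2 ratios from -5.19 to -4.13. All 6 liver and all 6 pancreas markers were also past 2-fold higher in replicate 2, and their part in these 4 genes was not tested. Sult1e1, the estrogen sulfotransferase gene, had 59 counts in replicate 1 and 8 in replicate 2 and was below the level compared.

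Of the 8 other receptor genes, 5 reached 1 TPM in both libraries and none was past 2-fold. Pgrmc1, a membrane-associated progesterone-binding protein, had 109 ± 35.9 TPM, the estrogen-related receptor genes Esrra 12.0 ± 2.64 and Esrrg 2.51 ± 1.07, and the membrane estrogen receptor gene Gper1 1.22 ± 0.283 TPM (SD, n = 2). The progesterone receptor gene Pgr had 6 counts in replicate 1 and 15 in replicate 2, or 0.04 and 0.07 TPM, below Esr1 in both libraries.

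**Figure D5:**
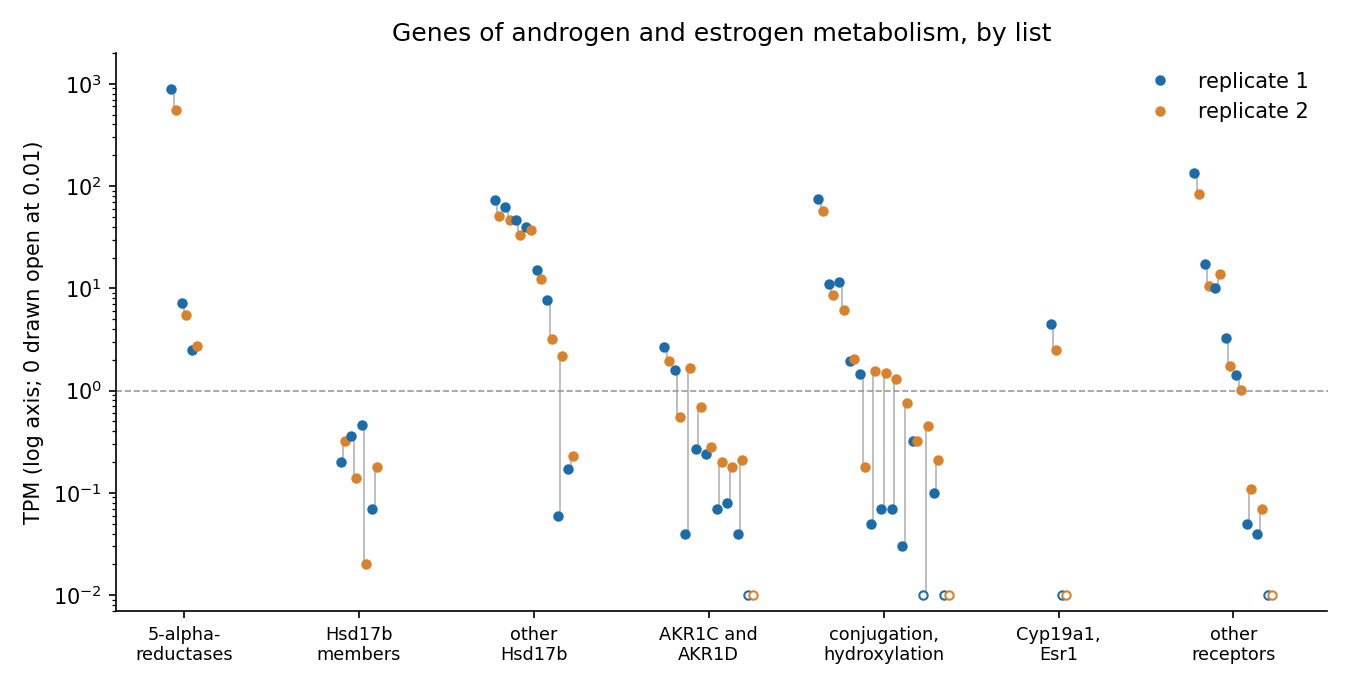
TPM on a log axis of the members and of the genes of 4 further lists, each gene as replicate 1 (blue) joined to replicate 2 (orange), with the dashed line at 1 TPM and values of 0 drawn open at 0.01. Srd5a2 at 899 and 554 TPM lies above every other gene drawn, and wide gaps between the libraries are seen in the lists with liver genes, such as Akr1c6 at 0.04 and 1.67 TPM.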

How the data were processed

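Total RNA was purified with a column kit and made into directional libraries with ERCC spike-ins from 300 ng each, per the labels. Gene and transcript tables on mm10 with GENCODE M21 identifiers hold expected counts, TPM and FPKM deposited by the authors in the column layout of RSEM, with the percent of each gene in each transcript. A second transcript file deposited by the authors holds estimated counts and TPM in the layout of kallisto. Aligner and program: not given in the sources used here. Entries naming no gene, spike-ins included, took 0.843% and 1.50% of counts in replicates 1 and 2 and were left out. FPKM values were not used for any result. Reads of the CAST/EiJ allele may be counted less well on mm10, which was not tested.

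The members and lists were chosen with earlier results of these data known. Levels are deposited TPM, as mean and SD over 2 libraries. Expected counts were rounded, library sizes scaled by TMM (edgeR 4.0.16 in R 4.3.3; factors 1.02 and 0.982), and genes averaging 1 CPM or more compared, with 0.5 added to counts for log2 ratios. Exact 95% limits on a ratio of 2 counts and the 3-count floor measure counting error alone: the tables carry no molecular identifiers, and reads need not be separate molecules. A gene was called at 2-fold. The procedure was tested on simulated counts that vary by counting error only, so that test does not cover any further spread between these libraries. Alternatives were DESeq2 1.42.0 size factors, total and spike-in scaling, the second file, other filters and pseudocounts, and each library alone. Shared words of 31 bases were sought in GENCODE M21 transcripts. Sequences are from RefSeq (GRCm38.p6). Named are all members, their transcripts above 0 TPM, up to 5 genes a list at 1 TPM or more in both libraries by mean TPM, any past 2-fold, and the 5 genes nearest in level to Srd5a2 and Esr1. A few genes that this rule takes are not reported here. Sts was not matched in the tables. Hsd17b8 is listed there as H2-Ke6. No column of another sample was present. Software was scipy 1.17.1, pandas 2.3.3, numpy 2.4.6 and matplotlib 3.10.9 under Python 3.11.15.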

Additional observations from a re-analysis of the deposited data

Results flagged for a closer look

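Cyp19a1, at 0 counts in the gene tables of both libraries, had 4.00 estimated counts in replicate 1 and 7.21 in replicate 2 in the second transcript file, above the 3 counts that a count of 0 allows. All of them were placed on Cyp19a1-201, at 0.0788 TPM in replicate 1 and 0.172 TPM in replicate 2. The 3′ part of that transcript, 1.37% of its 31-base words, shares words with 1454 other genes, and the part of this overlap in the estimates was not tested. Esr2 likewise had 0 counts in both gene tables, and 7.71 estimated counts in replicate 1 and 13.0 in replicate 2 in the second file. Lhcgr, with 0 counts in both gene tables, had 12.4 in replicate 1 and 24.8 in replicate 2 there. In each of these 3 genes the estimate was higher in replicate 2, and the reason for the difference between the files was not tested.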

How the results depend on the processing

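The Srd5a2 level of 726 TPM was 1586 in the second transcript file and 2639 rescaled over protein-coding genes; without 1 replicate it ranged from 554 to 899. Without 1 replicate, Srd5a2 over Srd5a1 ranged from 201 to 362, the Srd5a2 share of reductase TPM from 98.5% to 98.9%, members at 1 TPM stayed at 4, genes of the wider lists at 1 TPM numbered 41 to 44 (39 in both), Srd5a3-201 held 71.7% to 87.3%, Esr1-204 67.9% to 73.2%, and Srd5a2-201 100%. Members at 0.1 TPM in both libraries numbered 6. Spike-in scaling gave log2 ratios of 1.17 for Srd5a2, 0.90 for Srd5a3, 1.40 for Esr1 and 0.32 for Srd5a1, the last on the other side of 0 from -0.57. On TPM + 0.1 the ratios were 0.70 for Srd5a2, 0.38 for Srd5a3, 0.83 for Esr1 and -0.14 for Srd5a1, and on TPM + 1 they were 0.70 for Srd5a2, 0.33 for Srd5a3 and -0.11 for Srd5a1. The Srd5a2 ratio was 0.34 on total counts and 0.30 in the second file. Genes past 2-fold numbered 1011 (257 higher in replicate 1, 754 higher in replicate 2). Under spike-in scaling there were 5506 (5269 and 237 in that order), with no filter 7932, at a mean CPM of at least 5 346 (164 and 182), and at 1.5-fold 2557. The causes were not tested, apart from those set by the filter and the threshold themselves. No paired analysis was possible because the 2 libraries form a single group. The 44 other values stayed within the spread or the interval, or within 1.5 times for counts. For levels, ratios and shares without 1 replicate this was fixed in advance. Each of 2 values always lies within 1 SD of their mean. Depth limits the Hsd17b members and Cyp19a1 most, at 20 counts or fewer.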

Other observations

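Markers of gonadal steroid cells were low. The Leydig cell markers were Insl3 and Lhcgr. Insl3 had 26.5 counts in replicate 1 and 17.3 in replicate 2, or 1.43 and 0.85 TPM. The second file gave it 2.45 and 1.54 TPM in the same order, past 1 TPM in both libraries. Lhcgr had 0 counts in both gene tables but 12.4 and 24.8 estimated counts in the second file. Of the 4 granulosa cell markers only Inha, also a gene of adrenal cortex, reached 1 TPM in both libraries, at 10.5 TPM in replicate 1 and 5.41 TPM in replicate 2, and Amh had 14 and 8 counts. Of the X-zone markers Thrb had 8.00 TPM in replicate 1 and 9.10 TPM in replicate 2, and Pik3c2g 0.07 and 0.62 TPM.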
